A study of Homo sapiens with 4 samples.

Results

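The ERBB receptors and their EGF family ligands were followed in MCF10A cells, an established, non-tumorigenic line of human mammary epithelium. The set had 10 genes: the receptors EGFR, ERBB2 and ERBB3, the ligands EREG, AREG, HBEGF, TGFA, BTC and NRG1, and ERRFI1, an intracellular inhibitor of the receptors. Members were every probe set of the Affymetrix U133 Plus 2.0 array that the platform annotation assigned to 1 of these genes alone. This gave 35 of 54613 non-control probe sets, spread over 9 genes. No probe set in the annotation used here named AREG alone, and its transcript was not analysed here. Of the 35 probe sets, 21 reached the brightness minimum, an intensity of 14.6 averaged over the 4 arrays, and were tested. The other 14 are given as values.

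RNA came from cells with a control short hairpin RNA (2 arrays) and from cells with hairpins against CBL and CBLB (2 arrays, labelled double knockdown). All cells were grown in DFCI-1 medium, a rich medium that contains EGF, and were collected while growing normally. Nothing in the labels shows that arrays of 1 group were made from different cultures. The p-values therefore rest on array-to-array spread that may be technical. With 2 arrays a group, their number limited the precision of every value, and a lower signal from fewer expressing cells and one from less RNA per cell cannot be told apart.

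ERBB receptors are tyrosine kinases of the cell surface that pair with each other once a ligand has bound. The ligands are made as membrane precursors and are released by proteases of the ADAM family. CBL proteins are ubiquitin ligases that bind the activated EGF receptor and send it to lysosomes, so their known action on the receptor is on the protein, which these arrays do not measure. Mammary epithelial cells such as MCF10A depend on EGF for growth and themselves make EGF receptor ligands.

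The targeted transcripts were checked first, on the brightest probe set of each gene. CBL had intensities of 126 and 84.4 on the control arrays and 31.1 and 29.0 on the arrays labelled double knockdown (log2 change -1.37 ± 0.16 SE, adjusted p = 0.00281 by limma). CBLB had 64.3 and 70.0 against 94.8 and 99.5 (log2 change 0.45 ± 0.09 SE, adjusted p = 0.0198 by limma). CBLB was thus higher, against its label, and each direction below is that of the arrays labelled double knockdown. The cells carried epithelial transcripts on all arrays. Of 10 epithelial and basal markers 6 had a probe set, and their summed intensity was 28225 and 28078 on the control arrays and 17145 and 16887 on the others, with KRT5 and KRT14 lower and KRT18 and EPCAM higher. Of 6 leukocyte markers 4 had a probe set. Their summed intensity was 256 and 262 against 1004 and 1103, mostly from CD14 (228.5 and 230.9 against 976 and 1074), while PTPRC, which defines leukocytes, was below the brightness minimum. All 7 fibroblast and endothelial markers had a probe set, with a sum of 229.6 and 236 against 223 and 203. The part of these shifts in the results below was not tested.

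The called changes in the family were in ligands. A probe set of EREG and a probe set of HBEGF were called higher on the arrays labelled double knockdown. No member probe set was called lower. Of the 21 tested member probe sets 2 were called (9.52%), both higher, where 13.1% of all 27356 probe sets tested were called, 7.87% higher and 5.18% lower. The call rule was an adjusted p under 0.05 by limma. At an unadjusted p under 0.05, limma had 3 member probe sets higher and 0 lower, where 15.6% of all probe sets tested were higher and 13% lower. The median log2 change was 0.04 over the 21 and -0.0045 over all probe sets tested. The arrays of the groups did not overlap for 10 of the 21 (8 higher, 2 lower), against 56.6% of all probe sets tested (28.4% higher, 28.2% lower). As a set, then, the family had no larger share of calls than the array as a whole.

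**Figure D1:**
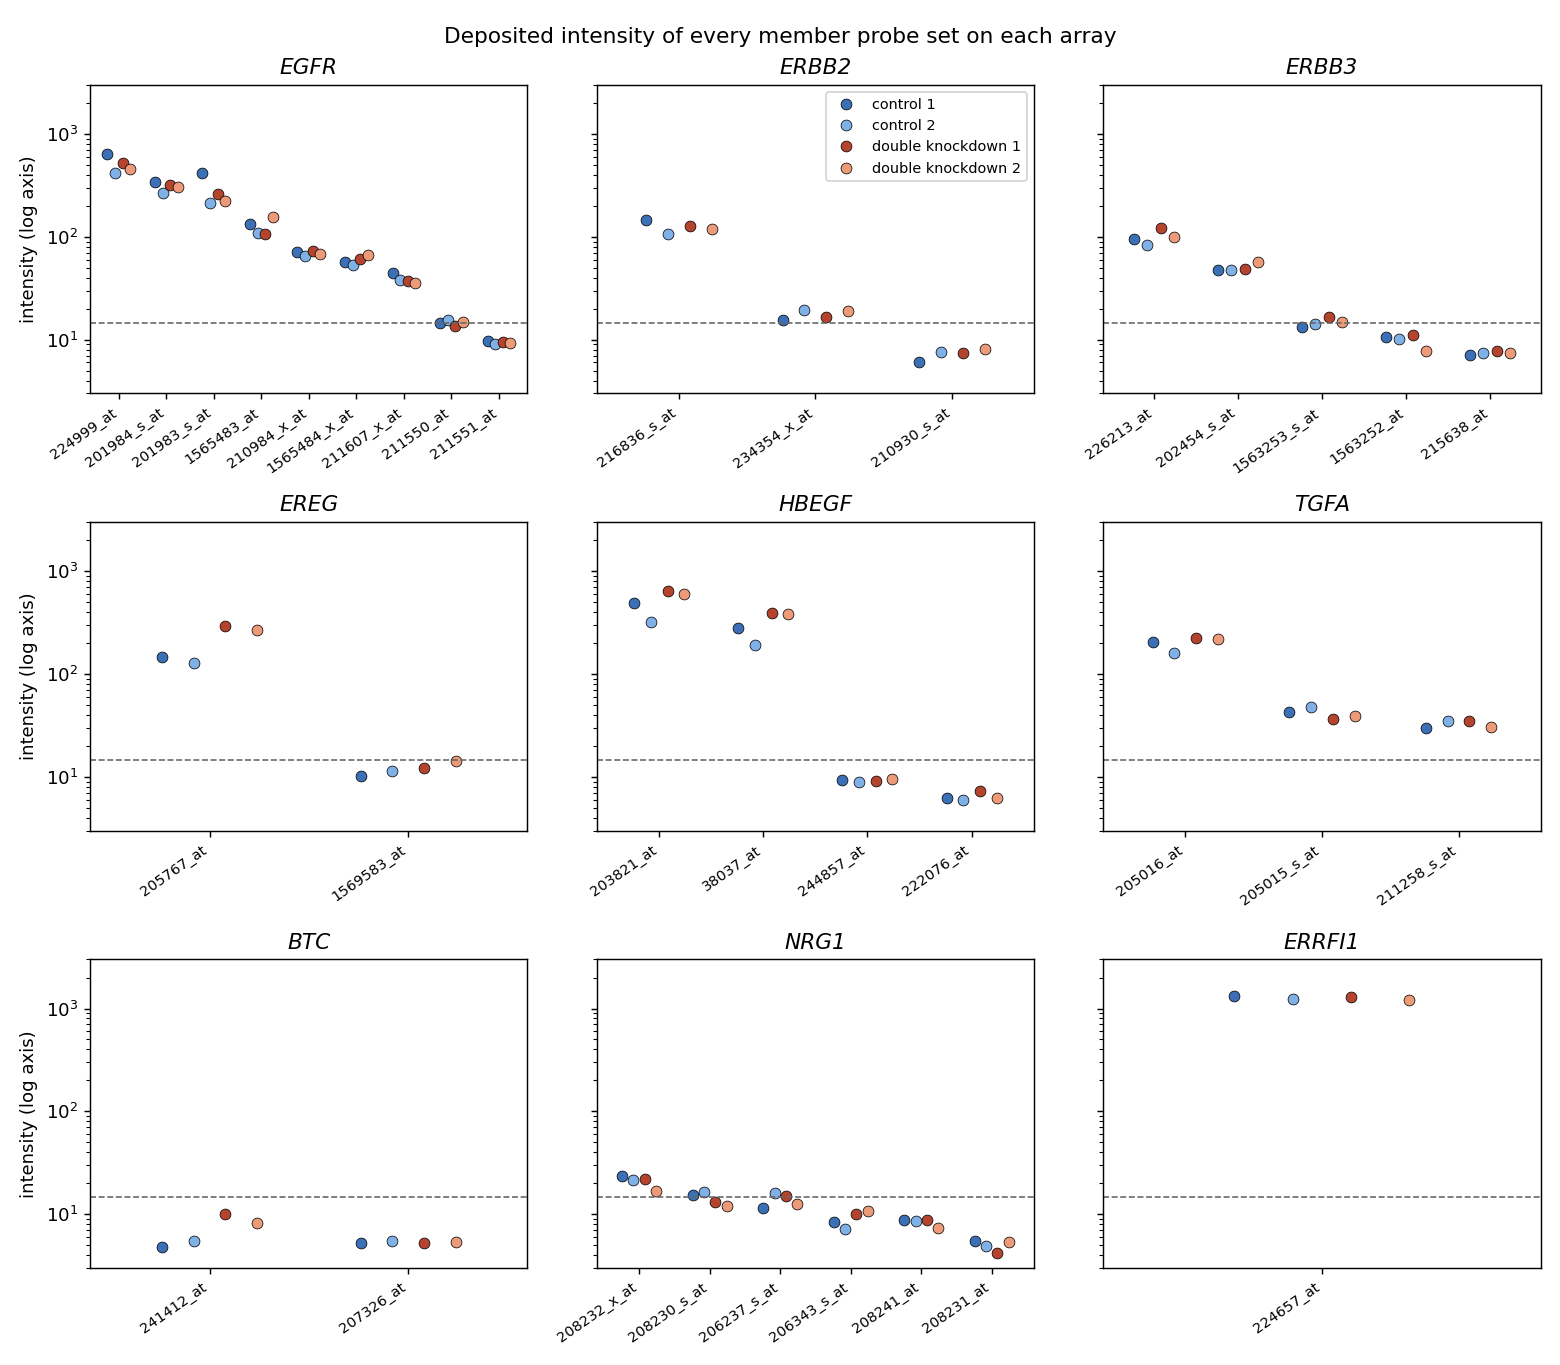
Intensity (log axis) of each of the 35 member probe sets on the 4 arrays, 1 panel a gene and 1 column a probe set, ordered by mean intensity. Blue points are control arrays, red points the arrays labelled double knockdown, and the dashed line is the brightness minimum of 14.6. EREG 205767_at and both bright HBEGF probe sets have the red points above the blue ones, while for the brightest EGFR probe sets the control arrays lie on either side of the red points.

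EREG encodes epiregulin, a ligand of EGFR that also signals through ERBB4. Its probe set 205767_at read 148 and 129 on the control arrays and 295 and 266 on the arrays labelled double knockdown, or 138 ± 12.8 (SD, n = 2) against 281 ± 20.6. Both arrays of the second group lay above both of the first, by more than the spread within either. The rise was 1.92-fold (log2 change 0.94 ± 0.10 SE, adjusted p = 0.0023 by limma). A second EREG probe set, 1569583_at, was below the brightness minimum, with 10.2 and 11.5 on the control arrays, and 12.1 and 14.2 in the other group. The genes with the most similar profile over the 4 arrays, by Euclidean distance between centred log2 values among 12962 genes, were SAMD8, SUCO and SESN2, at distances of 0.0447, 0.0461 and 0.0541. With 4 arrays in 2 groups, such a distance mostly reflects a like difference between the groups.

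HBEGF encodes heparin-binding EGF-like growth factor, a ligand of EGFR and ERBB4. It has 2 bright probe sets, and they showed the same pattern. Probe set 38037_at read 280.2 and 193 on the control arrays and 395 and 388 on the others, or 237 ± 61.5 (SD, n = 2) against 391 ± 4.70. Its rise was 1.64-fold (log2 change 0.71 ± 0.15 SE, adjusted p = 0.0272 by limma). Its brighter probe set 203821_at read 490.3 and 323 against 643 and 606 (log2 change 0.63 ± 0.17 SE, 95% interval 0.22 to 1.03). It missed the threshold in the test of all probe sets (adjusted p = 0.0561 by limma) and passed when each gene was tested by its brightest probe set alone (adjusted p = 0.0432 by limma). In both probe sets the groups did not overlap, and the error came mainly from the control pair, in which array 1 was far above array 2. Against control 1 alone the log2 changes were 0.46 for 38037_at and 0.34 for 203821_at, and against control 2 alone 0.96 and 0.92. The remaining probe sets of HBEGF, 244857_at and 222076_at, were dim, at 5.99 to 9.47 on all arrays.

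With either array labelled double knockdown left out, limma called no member probe set, and only 1.06% and 0.68% of all probe sets tested. The log2 change of EREG was then 0.87 and 1.01 (adjusted p = 0.061 and 0.0606 by limma), and that of HBEGF 38037_at 0.70 and 0.72 (0.191 and 0.217), about as large as with all 4 arrays. At an unadjusted p under 0.05, limma had 2 and 4 member probe sets higher and 0 lower, against 11.9% and 9.01% of all probe sets higher and 7.26% and 7.52% lower.

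EREG and HBEGF were the members with a called probe set. Their RefSeq promoters (GRCh38.p14, 250 bases before to 50 after the start of the gene, on the gene's strand) are shown, with matches to the searched motifs in capitals. The motifs, searched on both strands, were TATAAA (the TATA box), GGGCGG (the GC box), TGANTCA (AP-1, the factor of FOS and JUN), TGACGTCA (CRE), TGATGCAA (a C/EBP-ATF element) and the ER stress element, searched as its bipartite consensus. EREG lies on chr4:74364895-74365194 (plus strand) and HBEGF on chr5:140346554-140346853 (minus strand).
EREG: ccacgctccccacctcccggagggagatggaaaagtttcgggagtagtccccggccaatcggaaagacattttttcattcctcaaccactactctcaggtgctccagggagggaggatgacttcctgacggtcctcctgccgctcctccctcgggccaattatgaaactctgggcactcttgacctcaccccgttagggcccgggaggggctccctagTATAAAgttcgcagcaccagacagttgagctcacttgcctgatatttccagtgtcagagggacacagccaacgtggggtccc
HBEGF: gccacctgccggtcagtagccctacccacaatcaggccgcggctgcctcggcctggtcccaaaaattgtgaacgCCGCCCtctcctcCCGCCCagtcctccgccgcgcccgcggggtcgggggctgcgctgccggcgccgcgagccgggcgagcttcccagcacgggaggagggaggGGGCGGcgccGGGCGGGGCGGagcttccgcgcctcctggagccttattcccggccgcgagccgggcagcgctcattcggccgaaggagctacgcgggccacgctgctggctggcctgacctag
The windows differ in kind. EREG has 1 TATAAA, at position -32 from the start of the gene, a match held by 11.5% of 35116 promoters of the same length, and none of the other motifs. HBEGF has no TATAAA and 5 matches to the GC box, 2 of which overlap by 1 base. A GC box match was found in 45.0% of promoters. Neither window has a match to the AP-1 (7.71% of promoters), CRE (1.85%), C/EBP-ATF (0.866%) or ER stress (0.0769%) letters. A match is a description of letters, and no match says only that these letters are not in the window. Of the other members' windows, those of ERRFI1, BTC, 1 of the starts of TGFA and 1 of EGFR hold a GC box. The other EGFR window holds TATAAA and AP-1 matches, and that of ERBB2 an AP-1 match. The AREG window holds a TATAAA at position -29, a CRE match at -65 and a GC box at -9. It is the only other ligand window with TATAAA and the only one of the members searched with a CRE match. Promoters of ERBB3 and NRG1 were not analysed here.

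TGFA, the gene of transforming growth factor alpha, had no called probe set, and its probe sets pointed in different directions. Probe set 205016_at read 207 and 159.8 on the control arrays, and 224 and 222 on the arrays labelled double knockdown (log2 change 0.27 ± 0.12 SE, adjusted p = 0.192 by limma). Probe set 205015_s_at read 42.5 and 48.1 against 36.2 and 38.9 (log2 change -0.19 ± 0.09 SE, adjusted p = 0.215 by limma). Groups did not overlap in either, higher in the first and lower in the second. The third, 211258_s_at, read 29.8 and 35.02 against 34.9 and 30.8, with overlapping groups.

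BTC encodes betacellulin. In the RefSeq gene order EPGN, EREG, AREG and BTC are consecutive protein-coding genes on chromosome 4. Both BTC probe sets were below the brightness minimum and entered no call. Probe set 241412_at read 4.81 and 5.52 on the control arrays, and 10.1 and 8.26 in the other group, without overlap (unadjusted p = 0.00996 by limma without the brightness filter), while 207326_at read 5.20 and 5.47 against 5.23 and 5.32. At such intensities the first is a difference between dim values, and the second probe set did not share it.

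NRG1, whose neuregulins bind ERBB3 and ERBB4, was dim on all 6 probe sets, at 4.17 to 23.5. The only one tested, 208232_x_at, read 23.5 and 21.3 on the control arrays, and 21.7 and 16.8 in the other group (log2 change -0.12 ± 0.10 SE, adjusted p = 0.472 by limma). Among the dim ones, 208230_s_at was lower without overlap (15.5 and 16.3 against 13.2 and 11.97) and 206343_s_at higher without overlap (8.47 and 7.22 against 10.02 and 10.8). The probe sets of this gene thus gave no common direction.

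The receptors were not called on any probe set. EGFR was measured on 9 probe sets, 8 of them tested, with log2 changes from -0.29 to 0.15. Its brightest probe set, 224999_at, read 633 and 414 on the control arrays and 519.6 and 453 on the arrays labelled double knockdown (log2 change -0.08 ± 0.18 SE, 95% interval -0.50 to 0.35, adjusted p = 0.842 by limma). Both knockdown values lay between the control values. The same order was seen on 201984_s_at, with 343 and 266 against 319.7 and 304, and on 201983_s_at, with 421 and 213 against 262 and 223. With intervals this wide, a moderate change of EGFR in either direction was not detectable with these arrays.

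For 5 of the 8 tested EGFR probe sets, the brightest among them, the sign of the change depended on which control array was used, and the other 3 kept their sign. Against control 1 alone the log2 change of 224999_at was -0.37 (adjusted p = 0.108 by limma) and that of 201983_s_at -0.76 (adjusted p = 0.0273), a call of a fall. Against control 2 alone they were 0.22 (adjusted p = 0.306) and 0.17 (adjusted p = 0.447). The control pair differed by 0.93 on the log2 scale for 201983_s_at, at the 99.97th percentile of all probe sets tested. For 224999_at it differed by 0.59, at the 99.6th percentile. The dimmer probe sets were closer: 210984_x_at read 71.1 and 65.1 against 73.4 and 68.2, and 1565484_x_at 57.2 and 53.3 against 60.2 and 66.3. The remaining ones were 1565483_at (134 and 109.5 against 106 and 156), 211607_x_at (44.5 and 38.2 against 36.9 and 35.6), 211550_at (13.6 to 15.7 on all arrays) and the untested 211551_at (9.12 to 9.79).

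ERBB2, the receptor without a known ligand, read 147 and 108 on the control arrays, and 128 and 119.7 on the arrays labelled double knockdown on 216836_s_at (log2 change -0.024 ± 0.13 SE, 95% interval -0.34 to 0.29, adjusted p = 0.938 by limma). Here too both values of the second group lay between the control values, and the log2 change was -0.22 against control 1 alone and 0.17 against control 2 alone. The other ERBB2 probe sets were dim, at 15.4 to 19.6 for 234354_x_at and 6.04 to 8.06 for 210930_s_at.

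ERBB3 binds neuregulins and has little kinase activity of its own. Probe set 226213_at read 95.3 and 84.1 against 122 and 100.04 (log2 change 0.26 ± 0.11 SE, 95% interval -0.00046 to 0.53, adjusted p = 0.176 by limma). Probe set 202454_s_at read 48.0 and 47.2 against 49.1 and 56.4, and 1563253_s_at 13.2 and 14.1 against 16.7 and 14.9. All 3 tested probe sets of ERBB3 were higher without overlap, as were 28.4% of all probe sets tested, and none passed the test. The remaining 2, 1563252_at and 215638_at, were below the brightness minimum, at 7.08 to 11.1, and their groups overlapped.

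ERRFI1, also called MIG6, binds the kinase domain of the ERBB receptors and inhibits them, and its transcript is induced by EGF. Its only probe set, 224657_at, read 1329 and 1226 on the control arrays, and 1291 and 1223 in the other group, or 1277 ± 72.9 (SD, n = 2) against 1257 ± 48.2. The groups overlapped, and the log2 change was -0.023 ± 0.09 SE (95% interval -0.23 to 0.19, adjusted p = 0.909 by limma).

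**Figure D2:**
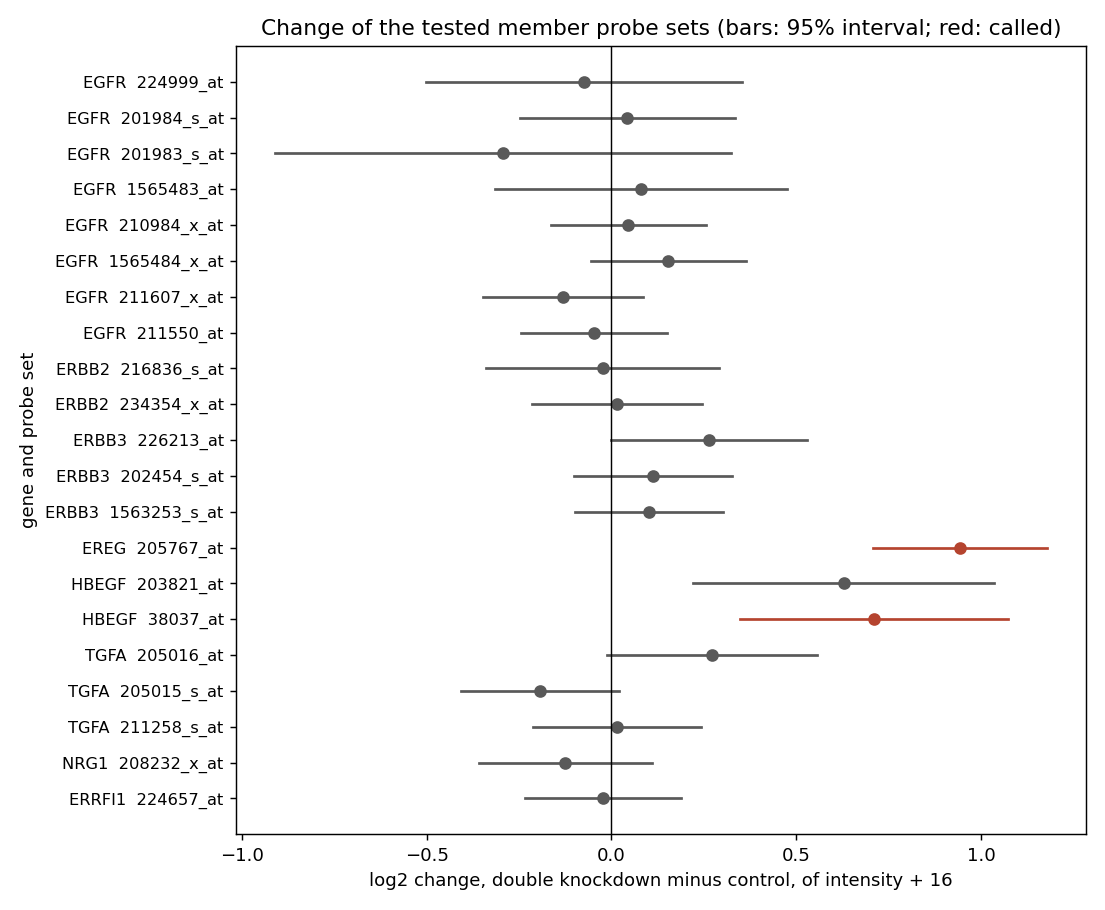
Log2 change (arrays labelled double knockdown minus control, of intensity + 16) of the 21 tested member probe sets, with the 95% interval of the moderated test as bars. Red marks the called ones, EREG 205767_at at 0.94 and HBEGF 38037_at at 0.71; HBEGF 203821_at at 0.63 is not called, and the widest bar is that of EGFR 201983_s_at, from -0.91 to 0.32.

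The remaining receptor and ligands of the family were near the floor of the array. ERBB4 had 9.23 and 10.4 on the control arrays, and 13.8 and 9.48 on the arrays labelled double knockdown. EGF had 4.79 to 5.26, NRG3 3.92 to 4.98 and NRG4 4.31 to 5.41 on all arrays, each on its brightest probe set. NRG2 was the only one tested, at 18.6 and 13.1 against 19.2 and 19.8 (adjusted p = 0.371 by limma). No probe set in the annotation used here named EPGN alone.

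Other genes of the pathway were taken by their brightest probe set. Over all 12970 genes tested, 14.3% were called, 8.51% higher and 5.74% lower, at a median log2 change of -0.00867. Of 12 genes of ligand shedding and maturation 11 were tested, 1 was higher and 0 lower, at a median of 0.14, and at an unadjusted p under 0.05 limma had 2 higher and 1 lower (15.9% and 14.3% of all genes). The gene that rose was RHBDL2, a rhomboid protease that can cleave EGF, from 35.5 and 33.6 to 47.0 and 55.2 (log2 change 0.41 ± 0.10 SE, adjusted p = 0.0345 by limma). ADAM17, the main protease that releases EREG, HBEGF and TGFA, had a log2 change of 0.14 ± 0.09 SE (adjusted p = 0.392 by limma). It was not called.

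Among adaptors and kinases just below the receptors, most genes were not called, and the calls went in both directions. Of 23 genes 17 were tested, with 3 higher, 1 lower and 13 not called, at a median log2 change of -0.00869. The shares over all genes tested were 8.51% higher and 5.74% lower. The exchange factors SOS1 and SOS2, which activate RAS, rose by 0.43 ± 0.09 SE and 0.53 ± 0.08 SE on the log2 scale (adjusted p = 0.0229 and 0.00941 by limma). Among the subunits of PI3 kinase, the catalytic PIK3CB rose from 189.7 and 182 to 259 and 258, and the regulatory PIK3R1 fell from 349 and 352 to 229 and 215 (log2 change -0.62 ± 0.09 SE, adjusted p = 0.00587 by limma). SHC1 and GRB2, the adaptors that bind the receptors, were not called (log2 changes -0.22 and -0.26).

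Of 25 genes that lower receptor signalling 24 were tested, and 6 rose and 4 fell, at a median log2 change of 0.08. Over all genes tested, 8.51% were called higher and 5.74% lower. CBLB, among the 6, and CBL, among the 4, are the targets of the hairpins. The list was chosen with earlier results of these data known. SH3KBP1, which encodes CIN85, an adaptor that joins CBL to the endocytic machinery, rose from 824 and 818 to 1277 and 1315 (log2 change 0.65 ± 0.08 SE, adjusted p = 0.00456 by limma). SOCS3, a feedback inhibitor, rose from 29.9 and 28.8 to 44.3 and 51.9. PTPN1, the phosphatase PTP1B that dephosphorylates EGFR, fell 1.97-fold from 252 and 163 to 104 and 86.8 (log2 change -0.98 ± 0.18 SE, adjusted p = 0.0168 by limma), and CBL fell as given above. The other genes with a call, named after their values were seen, were CBLB, CBLC, the phosphatase PTPRK and the ubiquitin ligase RNF41, all higher, and LRIG3 and the ubiquitin ligase STUB1, both lower.

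Transcripts known to be induced by EGF, which include feedback inhibitors and transcription factors, had no common direction between the groups. Of 28 listed 27 were tested, and 4 rose, 2 fell and 21 were not called, at a median log2 change of -0.08. Calls over all genes tested were 8.51% higher and 5.74% lower. PHLDA1, which can bind ERBB receptors, rose from 783 and 469 to 1205 and 1037 (log2 change 0.87 ± 0.21 SE, adjusted p = 0.0395 by limma). EGR3, a transcription factor, rose 1.52-fold and DUSP5, a phosphatase of nuclear ERK, 1.47-fold. CCND1, the cyclin that drives entry into S phase, fell 2.02-fold from 246 and 164 to 103 and 81.2 (adjusted p = 0.0146 by limma). TRIB1 (1.65-fold) was the other member that rose and SPRY1 (1.28-fold) the other that fell, both named after their values were seen.

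The arrays of the groups did not overlap for any of the 21 called genes of these lists. Leaving out 1 array therefore could not change their sign. With either array labelled double knockdown left out, limma called 1.27% and 0.979% of all genes and none of the pathway lists (smallest adjusted p 0.0638 and 0.0886, both of CBL). The log2 changes of the 21 genes were then 0.78 to 1.22 times those with all 4 arrays. At an unadjusted p under 0.05, limma had 14 of the pathway genes higher with 10 lower, and 14 higher with 8 lower, of 80, against 11.6% with 7.79%, and 9.81% with 8.34%, of all genes. With control 1 or control 2 left out, 6.61% and 9.92% of all genes were called, and the log2 changes of the 21 genes were 0.57 to 1.43 times those with all 4 arrays. Without control 1, the calls of RHBDL2 (adjusted p = 0.0864), SOS1 (0.0585), PIK3CB (0.0506), SOCS3 (0.0614), SPRY1 (0.129), CBLB (0.0742), CBLC (0.0783), LRIG3 (0.0798), RNF41 (0.088) and STUB1 (0.0835) were lost. Without control 2, those of RHBDL2 (0.0982), SOS1 (0.0707), PIK3CB (0.0529), SOCS3 (0.0588), EGR3 (0.0611), PHLDA1 (0.0618), TRIB1 (0.0642), SPRY1 (0.0555), PTPRK (0.0578), RNF41 (0.0606) and STUB1 (0.113) were lost. SOS2, PIK3R1, SH3KBP1, PTPN1, CBL, DUSP5 and CCND1 were called with either control array left out. Against control 1 alone the log2 change was 0.51 for PHLDA1 and 0.41 for TRIB1, and against control 2 alone 1.22 and 1.03.

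**Figure D3:**
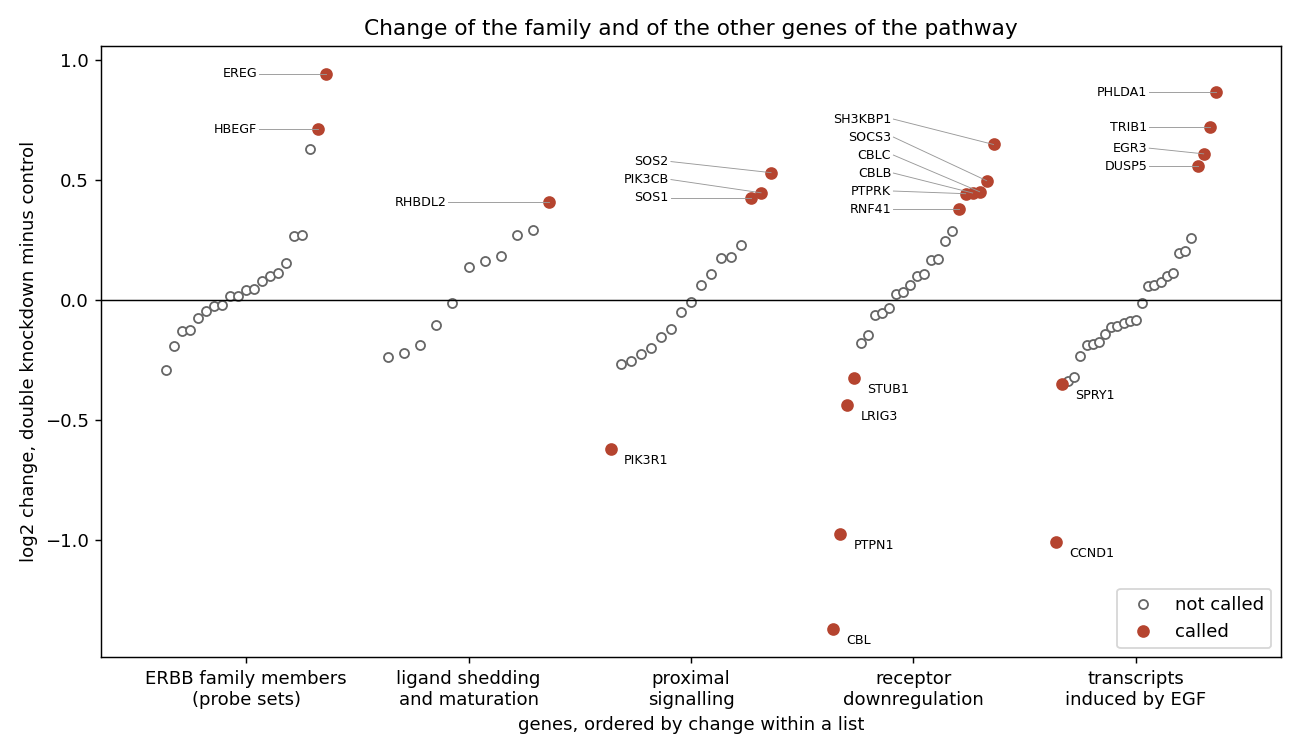
Log2 change (arrays labelled double knockdown minus control) of the 21 tested member probe sets and of the genes of 4 pathway lists by brightest probe set, ordered by change within each. Filled red points are called by limma and are named; open points are not called. EREG has the largest rise shown, at 0.94, and CBL the largest fall, at -1.37.

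The control arrays differed from each other along the same genes. Of 27 transcripts induced by EGF, all 27 were higher on control 1 than on control 2, by 0.06 to 0.75 on the log2 scale with a median of 0.35, where 47.7% of all genes tested were higher on control 1 and the median was -0.00962. EGR1, an early transcription factor of the response, read 771 and 451 on the control arrays, and 696 and 542 on the arrays labelled double knockdown. DUSP6, a phosphatase of ERK, read 889 and 532 against 689 and 598, and JUNB, a partner of FOS in AP-1, 302 and 177 against 252 and 233. These 3 genes had the largest differences between the control arrays in this list and were named after their values were seen. For them both values of the second group lay between the control values, as for the brightest probe sets of EGFR and ERBB2. Not all genes of the list did so. For PHLDA1, with the next largest difference, both lay above the control values, and for FOS and KLF10 both lay below.

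Of the 21 tested member probe sets, 16 were higher on control 1 than on control 2, at a median of 0.15, against 48.2% and a median of -0.0063 over all probe sets tested. The brightest probe sets of EGFR, ERBB2, HBEGF and TGFA were among them, with differences of 0.59, 0.40, 0.58 and 0.34. The brightest probe sets of EREG (0.17), ERBB3 (0.15) and ERRFI1 (0.11) differed less. The excess on control 1 was also seen in other lists. It was found for 14 of 17 genes of proximal signalling (median 0.14) and 9 of 11 of ligand shedding (median 0.15). Genes of receptor downregulation were near the share of all genes tested, with 13 of 24 higher on control 1 (54.2% against 47.7%, median 0.00789). On the arrays labelled double knockdown, 21 of the 27 EGF-induced transcripts were higher on array 1, at a median of 0.10, against 45.2% of all genes tested, at a median of -0.0151.

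The tested member probe sets and the EGF-induced transcripts were therefore also compared with each control array alone. The median log2 change of the EGF-induced transcripts was -0.23 against control 1 and 0.25 against control 2, and 11 of the 27 changed sign between them. For the 21 member probe sets the medians were -0.00596 and 0.17, and 9 changed sign. For EREG 205767_at and HBEGF 38037_at the groups did not overlap, so their direction could not differ between the control arrays. Their log2 changes were 0.86 and 0.46 against control 1 alone, and 1.03 and 0.96 against control 2 alone. The cause of the difference between the control arrays was not tested.

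**Figure D4:**
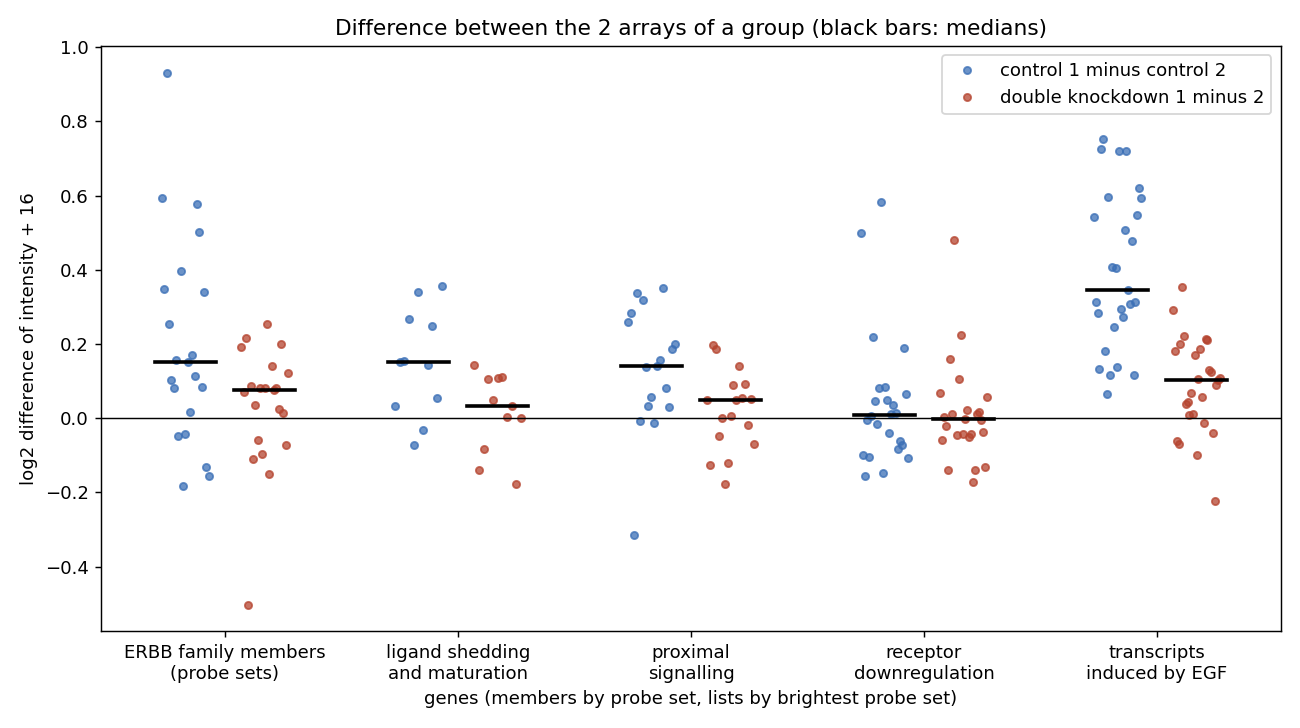
Difference between the 2 arrays of each group on the log2 scale (of intensity + 16) for the 21 tested member probe sets and for the genes of 4 pathway lists; blue is control 1 minus control 2, red the same for the arrays labelled double knockdown, and black bars are medians. All 27 EGF-induced transcripts have a blue point above 0, with a median of 0.35, whereas the genes of receptor downregulation scatter around 0.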

How the data were processed

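The deposited table holds 1 intensity per probe set and array on a linear scale, as judged from its values. The authors' background correction, summarisation and normalization of these intensities were not given in the sources used here. All 4 columns had medians of 14.5 to 14.7, and no further normalization was applied. Groups and sample numbers come from the sample titles. Of 54675 probe sets 62 controls were left out; 41091 of the rest named 1 gene in the platform annotation, 1801 several and 11721 none, and 41037 were matched by gene identifier to RefSeq symbols (GRCh38.p14).

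Values were taken as log2(intensity + 16), which makes every fold one of intensity + 16 and too small for dim probe sets. limma 3.58.1 (R 4.3.3; lmFit, eBayes, two-sided, constant prior, no covariate) was fitted on the 27356 probe sets whose mean over the 4 arrays reached the median of all, 14.6, with Benjamini-Hochberg adjustment over all of them. SE and 95% intervals are the moderated ones. Probe sets below the minimum come from the same model without that filter. The script was tested on simulated data. A gene of a pathway list was represented by its brightest probe set. The rule for names covered all members, CBL and CBLB, and the other ERBB receptor and ligands. It also covered up to 4 called genes of each list with the smallest p and the 3 genes most like the largest rise. No member was called lower, so none was sought for a fall. ADAM17, SHC1, GRB2, EGR1, DUSP6 and JUNB, none of them called, were named outside this rule. The members and lists were chosen with earlier results of these data known. Alternatives were 3 normalizations, 2 filters, 2 constants, 1 probe set per gene and no probe sets with the suffix _s_at or _x_at. A trended prior, a replicate block and leaving out each array were also used.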

Additional observations from a re-analysis of the deposited data

How the results depend on the processing

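EREG 205767_at kept its direction and its call in every alternative that used all 4 arrays. With 1 array left out its direction could not change, because the groups did not overlap. The log2 change was 0.86 to 1.03 with 1 array left out and 0.77 to 1.02 otherwise. HBEGF 38037_at lost its call without a brightness filter (log2 change 0.71, adjusted p = 0.135 by limma) and with a constant of 1 (0.75, 0.0537), and was at 0.46 to 0.96 with 1 array left out. HBEGF 203821_at, at 0.63, was called with array centring (adjusted p = 0.0489 by limma), the stricter filter (0.0314) and 1 probe set per gene (0.0432). It was also called without _s_at and _x_at probe sets (0.044) and with a trended prior (0.0437), and was at 0.34 to 0.92 with 1 array left out. ERRFI1 changed sign with cyclic loess (0.011). With 1 array left out, EGFR 224999_at ranged from -0.37 to 0.22, ERBB2 from -0.22 to 0.17, ERRFI1 from -0.080 to 0.035, ERBB3 from 0.14 to 0.39, TGFA from 0.10 to 0.44 and NRG1 from -0.23 to -0.024. In these fits the lone array of a group is assumed to vary like the pair of the other group.

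Over all probe sets, 2152 were called higher and 1418 lower. These counts were 975 and 585 without a filter and 1219 and 855 with 1 probe set per gene. The lower count was 850 with a constant of 1 and 729 without _s_at and _x_at probe sets. With 1 array left out they were 143 to 1464 and 43 to 1050. Called member probe sets numbered 1 without a filter and 1 with a constant of 1, and 0 to 3 higher and 0 to 1 lower with 1 array left out. Pathway genes called higher and lower numbered 14 and 7, or 8 and 2 without a filter, and 0 to 7 and 0 to 6 with 1 array left out.

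The titles number the arrays of both groups 1 and 2, which need not pair them. The differences within the groups correlated at r = 0.18 across probe sets, which are not independent replicates. With the replicate block, 2101 probe sets were called higher and 1395 lower, and HBEGF 203821_at (0.63) had adjusted p = 0.0423. With 2 arrays a group, small changes can be missed.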
